A study of Homo sapiens with 4 samples.

Results

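The cytochrome P450 genes were followed across 4 drug conditions in Panc1, an established cell line from a human pancreatic cancer. The set holds every gene whose symbol is CYP followed by digits, letters and digits and that has at least 1 probe set annotated to it alone. A probe set is the group of short array probes that together read 1 transcript. CYP51A1, antisense genes and pseudogenes were left out. By this rule 47 P450 genes, read by 92 probe sets, belonged to the set, of 19775 genes with a probe set of their own on the array. Of the 54 protein-coding P450 genes that the RefSeq gene table holds under the same symbol rule, 7 had no such probe set and were not analysed here.

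RNA of untreated cells was compared with that of cells given romidepsin, tamoxifen or both drugs, each for 24 hours. Romidepsin inhibits histone deacetylases, enzymes that take acetyl groups off histones, and tamoxifen is a selective oestrogen receptor modulator. All cells grew in the same serum-containing medium, the doses are not given in the sources used here, and the labels call the control untreated without saying whether it received a solvent. Each condition is 1 Affymetrix array of 1 cell line, so no test between conditions was possible and every fold describes these arrays alone.

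Cytochromes P450 are haem enzymes that insert an oxygen atom into fat-soluble molecules. Most sit in the endoplasmic reticulum and draw electrons from cytochrome P450 reductase, with cytochrome b5 as a second donor, and a smaller group in mitochondria draws them from ferredoxin. The liver expresses many of them for the clearance of drugs and bile acid synthesis, the adrenal gland and gonads use them to make steroid hormones, and many other tissues hold members that act on fatty acids, vitamin D, retinoids or environmental chemicals.

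Promoter sequences are given first for the genes that were at least 2-fold above untreated cells both with romidepsin and with the combination. There were 8 such genes (CYP1A1, CYP2J2, CYP2R1, CYP2U1, CYP39A1, CYP46A1, CYP4F2 and CYP4V2). Of all genes 9.88% were higher with romidepsin and 13.8% with the combination. The share of all genes higher with both was not counted, and both comparisons use the same untreated array. The RefSeq promoter table, of assembly GRCh38.p14, held a window for all 8 but CYP46A1. CYP4F11, a neighbour and close relative of CYP4F2 that stayed at the floor of detection on all 4 arrays, is added for comparison. The 150 bases before the annotated transcription start are printed 5′ to 3′ on the gene's strand. Capitals mark matches on either strand to GCGTG (the core bound by the aryl hydrocarbon receptor with its partner ARNT), GGGCGG (the GC box bound by SP1 family factors), AGGTCA (a core that nuclear receptors bind), CCAAT and TATAAA.
CYP1A1 (chr15:74725529-74725678, minus strand): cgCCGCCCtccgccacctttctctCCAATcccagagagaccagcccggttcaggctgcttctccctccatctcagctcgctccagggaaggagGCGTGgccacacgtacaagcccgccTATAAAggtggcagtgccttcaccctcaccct
CYP2J2 (chr1:59926774-59926923, minus strand): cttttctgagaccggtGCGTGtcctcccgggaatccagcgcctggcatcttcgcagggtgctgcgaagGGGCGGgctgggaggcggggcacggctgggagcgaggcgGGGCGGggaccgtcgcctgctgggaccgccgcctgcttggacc
CYP2U1 (chr4:107931399-107931548, plus strand): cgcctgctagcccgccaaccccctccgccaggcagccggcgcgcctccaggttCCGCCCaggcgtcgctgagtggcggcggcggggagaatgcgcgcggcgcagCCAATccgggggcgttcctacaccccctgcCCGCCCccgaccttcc
CYP2R1 (chr11:14891672-14891821, minus strand): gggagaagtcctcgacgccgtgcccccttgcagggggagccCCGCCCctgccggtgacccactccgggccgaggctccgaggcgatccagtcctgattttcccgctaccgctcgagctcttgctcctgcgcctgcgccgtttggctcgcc
CYP39A1 (chr6:46652819-46652968, minus strand): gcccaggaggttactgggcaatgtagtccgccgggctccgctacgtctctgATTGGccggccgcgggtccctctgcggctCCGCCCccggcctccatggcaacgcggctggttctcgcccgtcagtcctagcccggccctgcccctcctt
CYP4V2 (chr4:186191417-186191566, plus strand): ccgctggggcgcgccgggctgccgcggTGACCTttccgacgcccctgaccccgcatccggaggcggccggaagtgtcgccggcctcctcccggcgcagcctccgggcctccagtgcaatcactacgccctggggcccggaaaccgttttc
CYP4F2 (chr19:15898075-15898224, minus strand): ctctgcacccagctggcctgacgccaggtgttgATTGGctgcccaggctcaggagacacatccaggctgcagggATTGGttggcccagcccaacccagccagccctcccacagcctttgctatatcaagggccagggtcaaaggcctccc
CYP4F11 (chr19:15934868-15935017, minus strand): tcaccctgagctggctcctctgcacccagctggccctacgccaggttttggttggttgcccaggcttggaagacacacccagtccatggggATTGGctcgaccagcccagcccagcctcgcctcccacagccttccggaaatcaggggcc
The printed stretches of CYP1A1, CYP2J2, CYP2R1, CYP2U1 and CYP39A1 each held a GC box, while CYP4F2 and CYP4F11 held CCAAT in reverse (ATTGG) and none of the other 4 motifs. Over the full windows, from 250 bases before to 50 after the start, 6 of the 7 genes held GGGCGG, against 44.6% of 27305 genes with a window. The core GCGTG was found in 4 of the 7, in CYP1A1, CYP2J2, CYP2U1 and CYP4V2, against 36.3% of all genes. AGGTCA was found in 1 of the 7 (13.9% of all genes), CCAAT in 4 (35.7%) and TATAAA in 1 (12.0%), the last in CYP1A1. GCGTG and GGGCGG both contain CG, and the 7 windows were GC-rich. Their median was 65.3% G and C and 24 CG pairs, against 58.3% and 14 over all genes. The 14 members with a window that were at the floor on all 4 arrays had a median of 53.8% and 2 CG pairs, and 2 of those 14 held GGGCGG. The other 13 members with a window, above the floor but not raised in both, lay nearer to all genes, with 56.3%, 12 CG pairs and GGGCGG in 5. CYP4F2 stood apart among the 7, with 54.0% G and C, 1 CG pair and no GC box. These matches describe letters and say nothing of whether a factor was bound.

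The values are MAS5 signals, a linear brightness in arbitrary units that each array scales on its own. Values under the median of all signals on the 4 arrays, 66.4, have no dependable order and were set to that floor. Where 1 of 2 arrays lay at the floor, the fold is a lower bound, marked by the words at least. Each gene was represented by its brightest probe set over the 4 arrays, and it is called higher or lower where it differed by at least 2-fold. The only error that could be measured was technical: 2 probe sets of the same gene differed by a median of 0.25 to 0.34 in log2 fold over the 5 comparisons, with a 95th percentile of 0.93 to 1.33. Actin probe sets at the 3′ end of the transcript were set over those at its 5′ end as a sign of RNA integrity. Their ratio was 1.21 in untreated cells, 1.18 with romidepsin, 1.39 with tamoxifen and 1.73 with the combination. The GAPDH ratio, taken likewise, was 1.07, 1.03, 1.04 and 1.07 in the same order. The part of RNA integrity in the results was not tested. Of 9 pancreatic duct and epithelial markers 6 or 7 lay above the floor on each array, KRT8, KRT18 and SOX9 among them, but KRT19 and CFTR were at the floor on all 4. Of 4 mesenchymal markers 3 or 4 did, with VIM at 38695 in untreated cells and FN1 at the floor there. Of 5 fibroblast and endothelial markers 3 or 4 did, with COL1A1 at 9282 in untreated cells and COL3A1 at the floor on all 4 arrays. Hepatocyte markers, whose cells hold many P450s, were low, with 1 or 2 of 8 above the floor on each array, a summed signal of 336 to 361, and albumin (ALB) at the floor on all 4.

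Most P450 genes gave no signal above the floor in untreated cells. Untreated cells had 10 of the 47 members above the floor, romidepsin-treated cells 23, tamoxifen-treated cells 16 and cells given both drugs 18. Of all 19775 genes, 12159, 12988, 12479 and 13150 were above the floor on the same arrays. In all, 26 members were above the floor on at least 1 array and 8 on all 4, while 21 were at the floor throughout. The 8 seen on every array were CYP1A2, CYP1B1, CYP20A1, CYP26B1, CYP2R1, CYP2S1, CYP2U1 and CYP3A4. Among genes at the floor on all 4 arrays were CYP2B6, CYP2C8, CYP2D6 and CYP3A5, which clear drugs in the liver, CYP7A1, CYP7B1 and CYP8B1 of bile acid synthesis, and steroid hormone enzymes (CYP11A1, CYP11B1, CYP11B2 and aromatase, CYP19A1). The rest were CYP2A7, CYP2A13, CYP2F1, CYP2W1, CYP3A43, CYP4F3, CYP4F8, CYP4F11, CYP4X1 and CYP4Z1. Of this group a dimmer second probe set passed the floor on the tamoxifen array for CYP2B6 (75.7) and CYP3A43 (67.9). The RNA measurement cannot tell a gene that is off from one whose probes read poorly.

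**Figure D1:**
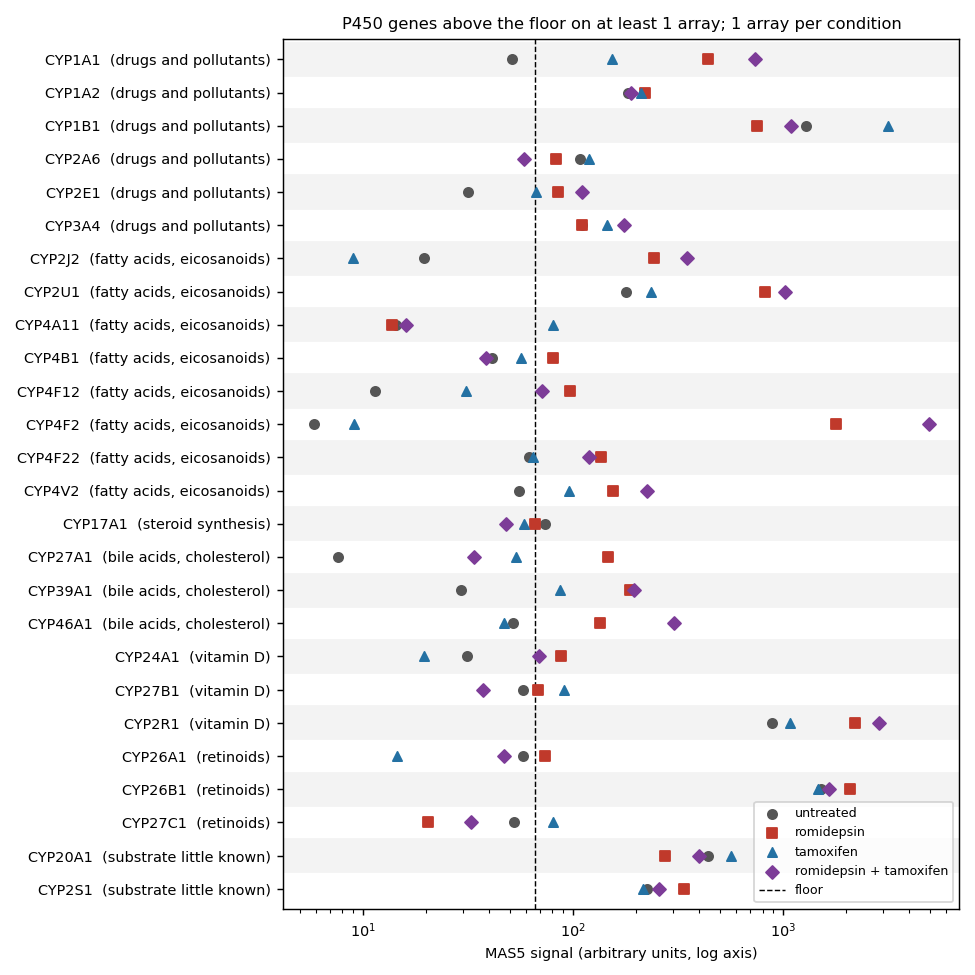
MAS5 signal (arbitrary units, log axis) of the 26 P450 genes above the floor on at least 1 array, grouped by known substrate, with 1 point for each of the 4 arrays and a dashed line at the floor of 66.4. CYP4F2 runs from 5.86 in untreated cells to 4941 with both drugs, and CYP1B1 is brightest with tamoxifen alone. CYP2R1 and CYP26B1 lie far above the line on every array.

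Romidepsin raised 10 of the 47 P450 genes at least 2-fold over untreated cells (21.3%) and lowered 0, where 9.88% of all genes were higher and 6.39% lower. The genes that rose were CYP4F2, CYP1A1, CYP2U1, CYP2J2, CYP39A1, CYP2R1, CYP4V2, CYP27A1, CYP4F22 and CYP46A1. In RNA of a whole culture, more expressing cells and more RNA per cell cannot be told apart. A gene at the floor in untreated cells can only go up, so the counts were also taken apart. Of the 37 members at the floor in untreated cells 8 were higher with romidepsin (21.6%), against 7.18% of all genes that started there. Of the 10 members above the floor in untreated cells 2 were higher and 0 lower, against 11.6% and 10.4% of all such genes, and their median log2 fold was 0.14 against -0.03. Over all 47 members, as over all genes, the median log2 fold was 0. The count of rises was 8 with arrays centred on their medians or quantile-normalized, where 7.95% and 8.68% of all genes rose. It was 7 with arrays scaled to spike-in controls, where 9.24% of all genes rose. CYP46A1 and CYP4F22 were lost each time and CYP27A1 in the last.

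CYP4F2 gave the largest fold of the set, bounds included. The enzyme adds a hydroxyl group to the end of long fatty acids, of the inflammatory lipid leukotriene B4 and of the side chains of vitamins E and K. Its signal was 5.86 in untreated cells, 1787 with romidepsin, 9.08 with tamoxifen and 4941 with both drugs. It was thus at the floor on the arrays without romidepsin and far above it on the others, at least 26.9-fold over untreated cells with romidepsin and at least 74.4-fold with the combination. CYP4F2 has 1 probe set of its own, of a kind (suffix _x_at) whose probes can also match other transcripts. A probe set annotated to both CYP4F2 and CYP4F3 read 26.1, 848, 3.29 and 1954 in the same order of arrays, with the same pattern.

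The relatives of CYP4F2 lie beside it on chromosome 19, and their signals were low. The RefSeq order is CYP4F22, CYP4F23P, CYP4F8, CYP4F3, CYP4F10P, CYP4F12, CYP4F24P, CYP4F36P, CYP4F2, CYP4F11 and CYP4F9P, where a final P marks a pseudogene. CYP4F22, which hydroxylates the very long fatty acids of skin ceramides, read 61.9, 136, 64.6 and 119 in untreated, romidepsin, tamoxifen and combination cells. With romidepsin it was at least 2.05-fold higher, just past the threshold, and with the combination at least 1.79-fold, a bound short of it. CYP4F12, a fatty acid hydroxylase, read 11.4, 97.1, 31.0 and 71.1, at least 1.46-fold over untreated cells with romidepsin. With the floor at the 25th percentile CYP4F12 was called higher with romidepsin and with the combination. CYP4F3, which inactivates leukotriene B4 in white blood cells, lay between 18.6 and 39.1, CYP4F8 between 1.25 and 56.2, and CYP4F11 between 1.62 and 6.23, all at the floor on every array. Among promoters, that of CYP4F2 shared 66.7% of aligned bases with that of CYP4F11 and 59.1% with that of CYP4F8, but 51.4% with CYP4F22 and 46.5% with CYP4F3. The range against 29 members outside the CYP4F subfamily was 45.9% to 54.8%, with a median of 50.4%.

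Other enzymes of fatty acids and eicosanoids, the lipid signals made from arachidonic acid, were also raised by romidepsin. CYP2U1, a hydroxylase of long-chain fatty acids, read 178 in untreated cells, 823 with romidepsin, 235 with tamoxifen and 1024 with both. The arrays with romidepsin were the high ones, 4.61-fold over untreated cells for the drug alone and 5.74-fold for the combination. A second CYP2U1 probe set read 85.9, 717, 118 and 846, or 8.35-fold and 9.85-fold. The remaining CYP2U1 probe sets were at the floor on all 4 arrays. With the median over its probe sets, the log2 fold of CYP2U1 was 1.53 with romidepsin and 1.65 with the combination. CYP2J2, which turns arachidonic acid into epoxides in heart and vessels, read 19.6, 242, 8.99 and 349.7. It passed the floor on the arrays with romidepsin only, at least 3.65-fold higher with the drug alone and at least 5.27-fold with both. CYP4V2, a fatty acid hydroxylase mutated in a corneal and retinal dystrophy, read 55.6, 155, 95.9 and 225, at least 2.34-fold over untreated cells with romidepsin and at least 3.39-fold with the combination. Its other probe sets gave no call with either treatment. The next read 35.6, 72.7, 53.1 and 103, at least 1.10-fold and at least 1.55-fold, and taking the median over its probe sets ended both calls. Of the remaining members of the group, CYP4B1 read 41.2, 80.3, 56.8 and 38.7, and CYP4A11, an omega-hydroxylase of liver and kidney, 14.4, 13.8, 80.3 and 16.0. Neither was called, but their folds are bounds, and with the floor at the 25th percentile CYP4A11 was called higher with tamoxifen. The other CYP4A11 probe set read 7.69, 36.8, 1.60 and 33.2, under the floor throughout. In the whole group of 11, 8 were above the floor somewhere and 5 rose with romidepsin, where 9.88% of all genes did.

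Among the 14 enzymes of drugs and pollutants, 6 were above the floor on some array and CYP1A1 alone rose with romidepsin. Over all genes 9.88% rose, so 1 rise among 14 is near that share. CYP1A1, which oxidizes polycyclic hydrocarbons and is the standard target gene of the aryl hydrocarbon receptor, read 51.5 in untreated cells, 439 with romidepsin, 154 with tamoxifen and 737 with both drugs. It was at the floor in untreated cells only, at least 6.61-fold higher with romidepsin, at least 2.31-fold with tamoxifen and at least 11.1-fold with the combination. CYP1B1, its relative that also hydroxylates oestrogens, went another way. On its brightest probe set it read 1290.25, 755, 3163 and 1094, highest with tamoxifen and lowest with romidepsin. With romidepsin it was 1.71-fold below untreated cells, short of a call, while its 2 dimmer probe sets above the floor gave 1.90-fold and 2.61-fold lower, so that the median over probe sets makes it the only P450 gene called lower. The remaining CYP1B1 probe set was at the floor on all 4 arrays. CYP1A2, which metabolizes caffeine, read 182, 222, 211 and 188 on 1 probe set and was at the floor on its other.

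Liver enzymes in this group showed low signals, with no call on their brightest probe sets. CYP3A4, which clears a large share of prescribed drugs and hydroxylates tamoxifen, read 110.4, 111, 145 and 175, and its other 4 probe sets did not exceed 69.9. CYP2A6, the nicotine oxidase, read 108, 83.3, 119 and 58.8, and 2 further probe sets disagreed with each other, one at 159, 61.5, 115 and 48.0, at least 2.39-fold lower with romidepsin and with the combination, and the other at 77.9, 102, 39.4 and 96.5. CYP2E1, which oxidizes ethanol, read 31.8, 85.0, 66.5 and 111, at least 1.28-fold over untreated cells with romidepsin and at least 1.67-fold with the combination. Both became calls with the floor at the 25th percentile.

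Of the 6 enzymes of cholesterol and bile acids, 3 rose with romidepsin and the other 3 were at the floor throughout. All 6 started at the floor, where 7.18% of all genes rose. CYP39A1, which hydroxylates an oxysterol on its way to bile acids, read 29.3, 188, 87.3 and 195, at least 2.83-fold over untreated cells with romidepsin and at least 2.94-fold with the combination. Its 2 other probe sets were also highest on the arrays with romidepsin, at 139 and 173 in one and at 98.1 and 262 in the other, and at the floor without it. Their romidepsin bounds were 2.09-fold and 1.48-fold, the latter under the threshold. CYP46A1, the enzyme that clears cholesterol from neurons, read 52.1, 135, 47.0 and 304. Its romidepsin bound of 2.03-fold was the smallest called and was lost under each of the 3 other scalings, while with the combination it was at least 4.59-fold higher. CYP27A1, a mitochondrial sterol hydroxylase, read 7.65, 147, 53.7 and 33.9. It was above the floor with romidepsin alone, at least 2.21-fold over untreated cells.

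In the vitamin D group the activating CYP2R1 rose and the other 2 members gave no call. Of all genes above the floor in untreated cells, as CYP2R1 was, 11.6% rose with romidepsin. CYP2R1, the main hydroxylase that turns vitamin D into its circulating form, read 884, 2215, 1086 and 2853 on its brightest probe set and 145, 343, 188 and 543 on the second. Both probe sets were high on the arrays with romidepsin, 2.51-fold and 2.36-fold over untreated cells for the drug alone and 3.23-fold and 3.74-fold for the combination. CYP24A1, which degrades the active hormone, read 31.5, 87.9, 19.5 and 69.0, at least 1.32-fold higher with romidepsin. With the floor at the 25th percentile CYP24A1 was called higher with romidepsin and with the combination. CYP27B1, which makes the active hormone, read 58.0, 68.2, 90.3 and 37.3.

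No retinoid, steroid or poorly characterized P450 gene was called in any of the comparisons. CYP26B1, which degrades retinoic acid, read 1522, 2078, 1464 and 1660, 1.37-fold above untreated cells with romidepsin. CYP26A1, of the same function, read 58.2, 74.0, 14.6 and 47.1, and CYP27C1, which desaturates retinol, 52.3, 20.5, 80.2 and 32.8. CYP17A1, needed for androgens and cortisol, was the one steroid enzyme above the floor, at 73.7, 66.3, 58.6 and 48.0, and it was so in untreated cells only. CYP20A1, whose substrate is not established, read 439, 273, 567 and 399.7, which is 1.61-fold lower with romidepsin. CYP2S1, an extrahepatic enzyme, read 226, 339, 216 and 256, 0.58 higher on the log2 scale with romidepsin. Among members above the floor on both arrays it came nearest to a called rise without reaching it.

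**Figure D2:**
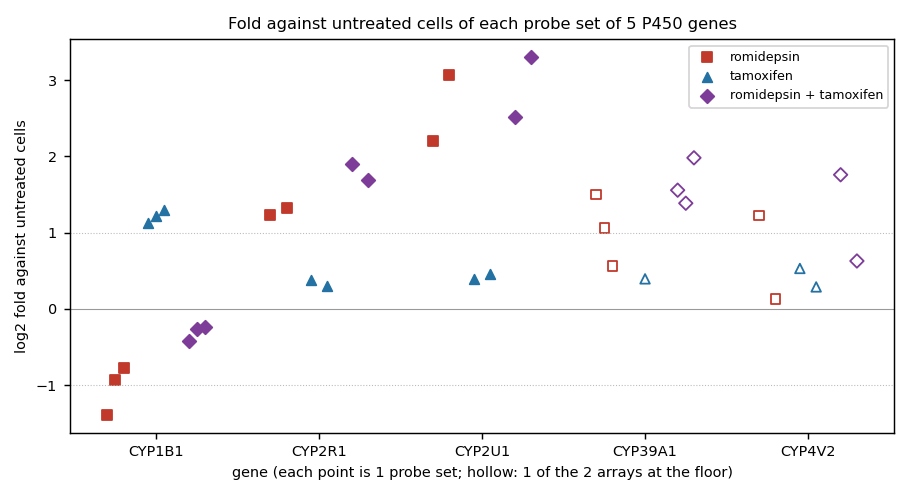
Log2 fold against untreated cells for each probe set of CYP1B1, CYP2R1, CYP2U1, CYP39A1 and CYP4V2 that was above the floor on at least 1 of the 2 arrays, with hollow points where the other array was at the floor (lower bounds). CYP2R1 and CYP2U1 probe sets lie above 1 with romidepsin and the combination, CYP1B1 probe sets lie above 1 with tamoxifen and below 0 otherwise, and those of CYP39A1 and CYP4V2 fall on either side of 1 with romidepsin.

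Tamoxifen alone raised 2 of the 47 P450 genes, CYP1A1 and CYP1B1 (4.26%), and lowered 0, where 2.44% of all genes were higher and 0.708% lower. CYP1B1 was 2.45-fold above untreated cells on its brightest probe set and 2.32-fold and 2.19-fold on the 2 others above the floor. CYP1A1, at least 2.31-fold higher, started at the floor (1 of 37 such members, against 0.762% of all genes at the floor). Its call was lost with the floor at the 75th percentile of signals or with a pseudocount in place of the floor. Of the 10 members above the floor in untreated cells 1 was higher and 0 lower, against 3.50% and 1.15% of all such genes, and their median log2 fold was 0.25 against -0.03. Members without a call included CYP4V2, at least 1.45-fold, CYP27B1, at least 1.36-fold, CYP39A1, at least 1.31-fold, CYP2U1, 1.32-fold, CYP3A4, 1.31-fold, and CYP20A1, 1.29-fold higher.

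The combination raised 8 of the 47 genes over untreated cells (17.0%) and lowered 0, where 13.8% of all genes were higher and 10.0% lower. These were the romidepsin genes other than CYP27A1 and CYP4F22; both comparisons use the same untreated array. Of members at the floor in untreated cells 6 of 37 were higher (16.2%), against 8.40% of all genes there, and of the 10 above it 2 were higher and 0 lower, against 17.2% and 16.3%. The 8 stayed called with arrays centred on their medians, quantile-normalized or scaled to spike-in controls. Over all genes the split of calls depends on that scaling. Romidepsin gave 1953 genes higher and 1263 lower as deposited but 1573 and 1743 with arrays centred on their medians. For tamoxifen 483 and 140 became 293 and 317 so centred, 353 and 204 quantile-normalized and 1526 and 27 scaled to spike-ins. The combination's 2727 and 1984 became 2026 and 2886 centred and 3592 and 1342 scaled to spike-ins.

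The romidepsin effect can be read a second time on separate arrays, as the combination over tamoxifen alone. There 8 members were higher and 1 lower, where 10.4% of all genes were higher and 8.31% lower. The 8 higher genes were among the 10 that romidepsin raised over untreated cells, and 7.52% of all genes were higher in both. CYP4F2 was at least 74.4-fold, CYP2J2 at least 5.27-fold, CYP1A1 4.80-fold, CYP46A1 at least 4.59-fold, CYP2U1 4.36-fold, CYP2R1 2.63-fold, CYP4V2 2.34-fold and CYP39A1 2.24-fold above tamoxifen alone. CYP27A1 (33.9 and 53.7, both at the floor) and CYP4F22, at least 1.79-fold, were not called. CYP1B1 was the gene called lower, from 3163 with tamoxifen to 1094 with both drugs, a fold of 2.89. Its 3 probe sets above the floor gave 2.78-fold to 2.93-fold, and its level with both drugs was 1.18-fold below untreated cells.

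Tamoxifen added to romidepsin raised 2 members, CYP4F2 and CYP46A1, and lowered 1, CYP27A1, where 2.83% of all genes were higher and 1.58% lower. CYP4F2 went from 1787 to 4941, or 2.77-fold. CYP46A1 went from 135 to 304, or 2.26-fold. CYP27A1 dropped from 147 to 33.9, at least 2.21-fold lower, and this call was lost when arrays were scaled to spike-ins. The all-gene split for this comparison, 559 higher and 312 lower as deposited, was 393 and 454 with centred arrays and 1324 and 89 scaled to spike-ins. As deposited, no member was higher with tamoxifen both without and with romidepsin, where 0.829% of all genes were: CYP1A1 was 1.68-fold and CYP1B1 1.45-fold above romidepsin alone, both short of the threshold. Conversely CYP4F2 and CYP46A1 were at the floor with tamoxifen alone. When arrays were scaled to spike-ins, CYP1A1 was called higher both without and with romidepsin. Under that scaling 7.72% of all genes were higher with tamoxifen and 6.70% over romidepsin, and the share higher in both was not counted. With 1 array a condition, the difference between the tamoxifen folds without and with romidepsin was not tested.

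**Figure D3:**
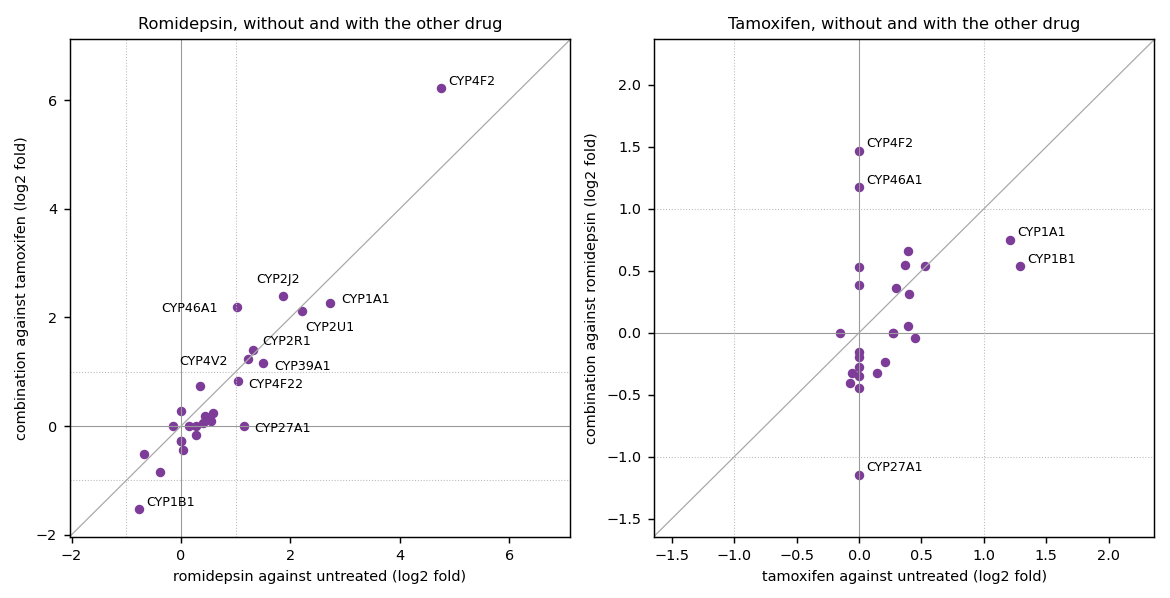
Log2 fold of the 26 P450 genes above the floor on at least 1 array. Left, romidepsin against untreated cells (horizontal) and the combination against tamoxifen (vertical); right, tamoxifen against untreated cells and the combination against romidepsin, with dotted lines at 2-fold and a diagonal where both folds are equal. The 8 genes raised by romidepsin both without and with tamoxifen lie at the upper right of the left panel, and the right panel has no point past 2-fold on both axes.

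The proteins that feed electrons to P450 enzymes were above the floor in all 10 cases, of 12 listed, that had a probe set. With romidepsin 3 were higher and 1 lower, where 11.6% and 10.4% of all genes above the floor in untreated cells were. With tamoxifen 0 were higher and 0 lower (3.50% and 1.15%), and with the combination 4 and 2 (17.2% and 16.3%). POR, the reductase that serves all P450s of the endoplasmic reticulum, read 903, 2569, 842 and 2355, 2.84-fold above untreated cells with romidepsin and 2.61-fold with the combination. CYB5R1, a cytochrome b5 reductase, read 1672, 5301, 1392 and 6216, or 3.17-fold and 3.72-fold higher. CYB5R2, another, went down, from 5090 to 2358 with romidepsin and 1125 with the combination, 2.16-fold and 4.52-fold lower. CYB5R4 read 926, 1621, 1708 and 2566, 2.77-fold higher with the combination and 1.75-fold with romidepsin.

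Of 30 listed transcription factors known to control P450 genes, and their partners, 23 had a probe set and 19 were above the floor on some array. With romidepsin 6 of the 23 were higher and 4 lower (9.88% and 6.39% of all genes), with tamoxifen 0 and 0 (2.44% and 0.708%), and with the combination 6 and 5 (13.8% and 10.0%). CEBPA, a liver and fat cell factor, read 132, 944, 23.7 and 621, 7.15-fold above untreated cells with romidepsin. VDR, the vitamin D receptor, read 219, 1303, 153 and 1155, 5.96-fold and 5.28-fold higher with romidepsin and the combination. PPARG, the fatty acid receptor of fat cells, read 1609, 599.8, 1963 and 421, 2.68-fold lower with romidepsin and 3.82-fold with both drugs. NR1H3, an oxysterol receptor, read 749.9, 374, 383 and 160, 2.01-fold and 4.69-fold lower.

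The aryl hydrocarbon receptor pathway is given for its link to the CYP1 genes, a choice made after its values were seen. AHR, the receptor, read 1381, 2892, 2649 and 2850, 2.09-fold above untreated cells with romidepsin, 1.92-fold with tamoxifen and 2.06-fold with both. AHRR, its repressor and a target gene, read 790, 314, 654 and 334, 2.51-fold lower with romidepsin and 2.36-fold lower with the combination. TIPARP, another target gene, read 3839, 6175, 5946 and 7582, or 1.61-fold, 1.55-fold and 1.97-fold above untreated cells, each under the threshold. ARNT, the partner of the receptor, read 758, 584, 738 and 494.

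**Figure D4:**
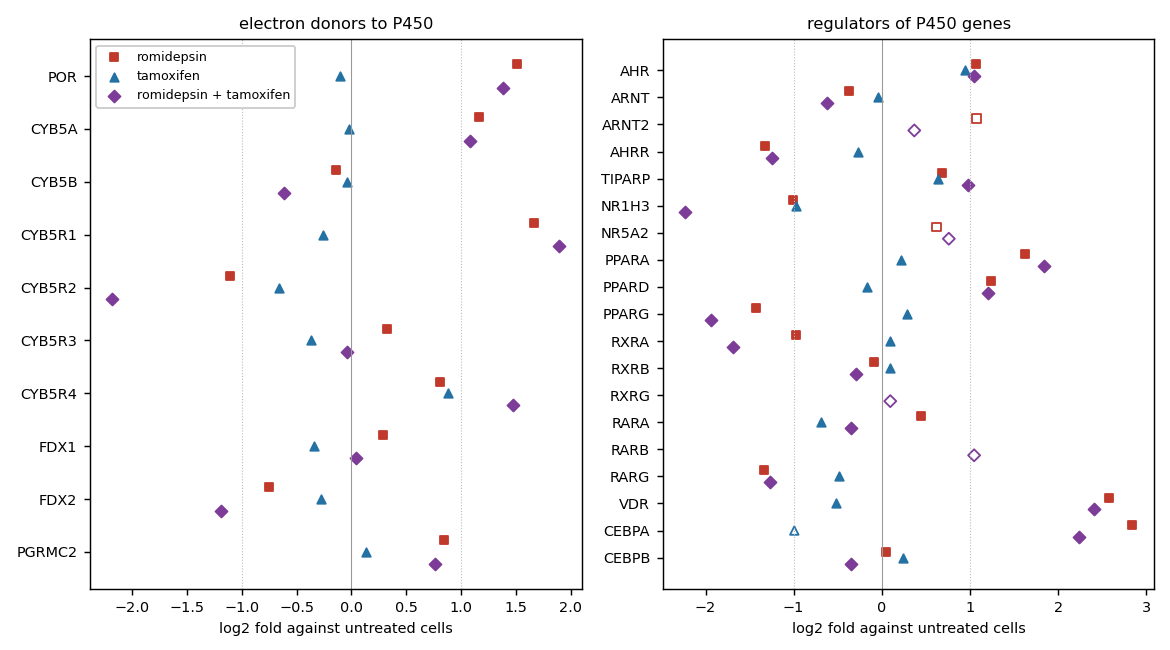
Log2 fold against untreated cells of the electron donors to P450 enzymes (left) and of regulators of P450 genes (right) above the floor on at least 1 array, for romidepsin, tamoxifen and both drugs, with dotted lines at 2-fold and hollow points for bounds. POR, CYB5A and CYB5R1 lie past 2-fold on the higher side with romidepsin and the combination, CYB5R2 on the lower side, and tamoxifen alone has no point past 2-fold.

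Haem supply and the enzymes that act after P450s are described last. Of 13 genes of haem synthesis and breakdown 12 had a probe set. Of these 2 were higher and 0 lower with romidepsin (9.88% and 6.39% of all genes), 0 and 0 with tamoxifen (2.44% and 0.708%) and 1 and 0 with the combination (13.8% and 10.0%). ALAD, an early enzyme of the haem pathway, read 182, 512, 213 and 714, 2.81-fold and 3.92-fold over untreated cells, and CPOX, a later one, 1284, 2616, 1489 and 2558, 2.04-fold and 1.99-fold. BLVRB, a biliverdin reductase, read 2811, 5513, 3494 and 4687 and HMOX2, a haem oxygenase, 3590, 3480, 1939 and 2346, both under 2-fold. Of 32 conjugating enzymes and epoxide hydrolases, which take up the products of P450s, 29 had a probe set. Against the same shares of all genes, 5 were higher and 1 lower with romidepsin, 0 and 0 with tamoxifen, and 5 and 3 with the combination. UGT8, which joins galactose to ceramide, read 9.23, 664, 0.883 and 995, at least 10.0-fold and at least 15.0-fold higher. NAT1, an arylamine acetyltransferase, read 128, 1068, 144 and 1632, or 8.32-fold and 12.7-fold higher, and its relative NAT2 5.38, 49.6, 5.82 and 302, at least 4.55-fold higher with the combination. GSTO1, a glutathione transferase, fell from 17231 to 6179 and 2952, 2.79-fold and 5.84-fold lower. The P450 enzymes TBXAS1 and PTGIS, whose symbols the rule leaves out, were not called in any comparison.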

How the data were processed

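Total RNA of Panc1 cells was labelled from 100 ng with a 3′ IVT kit and hybridized to 4 arrays, 1 per condition, per the labels' protocols. The deposited values are linear probe-set intensities, which the authors made with MAS5 (no version recorded) per the submitters' processing notes. The mean signal after 2% was trimmed at each end was 500.1 on every array, so the scaling takes total signal to be equal; median signals were 59.5 (untreated), 67.9, 66.0 and 73.0. Of 54675 probe sets 62 are controls, 41097 name 1 gene, 1801 several and 11715 none. Entrez IDs matched 41043 to RefSeq genes (GRCh38.p14) and changed 0 symbols. Columns of other samples numbered 0. No value was filtered out: counts run over all 47 members and all 19775 genes.

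Members and gene lists were chosen with earlier results of these data known. By rule, every member above the floor is described and those at the floor are named; promoters are printed for genes called with both romidepsin and the combination and for close relatives; of each partner list up to 4 members with the largest folds are named. The motif CCAAT, the motif TATAAA and the counts of CG pairs were added after seeing the promoters. Protein sequences were not used here. Calculations used Python 3.11.15, numpy 2.4.6 and pandas 2.3.3, and figures matplotlib 3.10.9. The calling step was tested on simulated data with changes larger than 2-fold, planted in bright genes only. Calls that start at the floor were not tested there. Spike-in signals with tamoxifen and with the combination were 0.781 and 0.819 times those of untreated cells.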

Additional observations from a re-analysis of the deposited data

Results flagged for a closer look

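Of 21 P450-related probe sets outside the set of single-gene P450 probe sets, most stayed at the floor and a few gave signals well above those of untreated cells. The probe set annotated to both CYP4F2 and CYP4F3 read 848 with romidepsin and 1954 with the combination, against 26.1 in untreated cells and 3.29 with tamoxifen. The CYP4F3 probe set of its own stayed at the floor. A probe set of the pseudogene CYP4F62P read 230 with the combination and 114 with romidepsin, against 24.6 and 33.5 on the arrays without romidepsin. The 2 probe sets annotated to both LRRD1 and CYP51A1, the P450 of cholesterol synthesis, read 5449 and 4345 with tamoxifen, against 2389 and 1545 in untreated cells. With the combination they read 4055 and 2242, and with romidepsin 2968 and 1766. None of these differences has a replicate.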

How the results depend on the processing

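With 1 array per condition no array could be left out and no paired analysis was possible because no condition has a second array. Counts of P450 genes called were recomputed under 10 alternatives, and no called fold reversed; of 250 single-gene log2 folds 179 moved by no more than the median difference between probe sets of a gene and 71 by more. The floor mattered most. From here brackets give the share of all genes called under the same setting. With the floor at the 75th percentile romidepsin raised 3 members (4.05%), tamoxifen 1 (0.986%) and the combination 3 (7.20%) over untreated cells. The combination raised 1 over romidepsin (1.35%), with 0 lower (0.662%), and 3 over tamoxifen (4.91%). CYP4F2, CYP2U1 and CYP2R1 were the 3 each time. At the 25th percentile romidepsin raised 13 (15.3%), tamoxifen 7 (7.44%) and the combination 13 over untreated cells (20.0%) and 13 over tamoxifen (15.6%). CYP24A1, CYP2E1 and CYP4F12 were gained there with romidepsin and with the combination. Lower were 3 for romidepsin (9.61%), 2 for tamoxifen (3.79%), 2 for the combination under romidepsin (4.19%) and 5 under tamoxifen (12.0%). A pseudocount in place of the floor left 1 gene higher for tamoxifen (1.47%) and 1 for the combination over romidepsin (1.83%). Without probe sets open to matches with more than 1 transcript, 39 members had a level, and CYP4F2 and CYP1B1 had none. The counts were then 1 higher for tamoxifen (2.34%) and 0 lower for the combination under tamoxifen (7.17%). The median over probe sets gave 1 lower for romidepsin (4.78%). Spike-in scaling gave 3 higher over romidepsin (6.70%), 0 lower under romidepsin (0.450%) and 2 lower under tamoxifen (9.30%). A 1.5-fold threshold gave 4 higher over romidepsin (9.40%). Lower were 2 for romidepsin (13.3%), 1 for the combination (17.1%) and 2 under tamoxifen (15.4%). A 3-fold threshold left 4 higher for romidepsin (4.51%), 0 for tamoxifen (0.202%), 0 over romidepsin (0.278%) and 5 over tamoxifen (4.64%). Under romidepsin (0.202%) and under tamoxifen (3.35%) 0 were lower at 3-fold. Log2 folds over the alternatives ranged from 2.13 to 6.53 for CYP4F2 with romidepsin, 1.01 to 2.21 for CYP2U1 and 1.14 to 1.33 for CYP2R1, and from 1.15 to 1.65 for CYP1B1 with tamoxifen. Dim genes such as CYP27A1, CYP46A1, CYP4F22 and CYP4V2 reached 0 with the highest floor.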
